A study of Mus musculus with 20 samples.

Results

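The genes of MHC class I antigen presentation were followed in 20 mouse retinas. They were chosen by name, as the 10 genes H2-K1, H2-D1, H2-T23, B2m, Tap1, Tap2, Tapbp, Psmb8, Psmb9 and Erap1, out of 35006 genes in the count tables, and 9 of the 10 had counts and entered every test. Expression had been measured by sequencing of polyA RNA, with 1 retina from each C57BL/6J mouse, an inbred strain. The 4 groups were young control (4 mice, 119 days old), young NACET (6 mice, 119 or 129 days), old control (4 mice, 668 days) and old NACET (6 mice, 574, 581 or 668 days, 2 mice at each age). NACET, N-acetyl-L-cysteine ethyl ester, is a lipophilic cysteine precursor, and treated mice had drunk it with their water for 5 days, at a daily dose of 50 mg/kg, whereas controls had none. No mouse carried a transgene according to the labels. For young NACET replicate 6 the title gives 119 days and the batch tag 129 days.

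Class I molecules carry short peptides from the inside of a cell to its surface, where CD8 T cells and NK cells read them. The proteasome cuts proteins into peptides, and immune signals exchange its standard catalytic subunits for immunoproteasome subunits such as Psmb8 and Psmb9. Tap1 and Tap2 form the transporter that moves peptides into the endoplasmic reticulum, the aminopeptidase Erap1 trims them, and tapasin, the product of Tapbp, helps to load them onto a heavy chain paired with B2m, the light chain. H2-K1 and H2-D1 encode the classical heavy chains of this strain, and H2-T23 encodes Qa-1, a nonclassical heavy chain that NK cell receptors recognize. Neurons hold little class I at rest, and interferons are the best known inducers of the whole pathway.

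The retinas were checked first. The 10 rod genes summed to 66778 to 101068 CPM (counts per 1e+06 gene counts) over the 20 libraries, and gene counts per library were 17.7 to 31.1 M (M, 1e+06 counts). The labels give 4 females, all among the young (2 controls and 2 treated), and only males among the old, but old control replicate 4 had 59555 counts of Xist, the transcript of the inactive X chromosome, which is the pattern of a female. Lens genes summed to 11323 CPM in old NACET replicate 1 and to 21.97 CPM or less elsewhere. Genes of cornea and conjunctiva summed to 260 to 595 CPM in young NACET replicates 3, 4 and 5 and old control replicate 2, and to 68.8 CPM or less elsewhere. The part of these tissues and of sex in the results was examined only by leaving out single libraries, by leaving out Xist-positive libraries and by fits with sex by Xist as a covariate, and beyond that it was not tested. The samples come from separate mice, so the spread is between animals.

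In mm9, the assembly to which the reads had been aligned, 8 of the 10 genes lie on chromosome 17 in the major histocompatibility complex. H2-K1 is at chr17:34132962-34137278 on the minus strand, H2-D1 at chr17:35399675-35404444 on the plus strand and H2-T23 at chr17:36166718-36169800 on the minus strand. The peptide genes lie next to each other, with Psmb9 at chr17:34318932-34324697 on the minus strand, Tap1 at chr17:34324498-34334170, Psmb8 at chr17:34334666-34338399 and Tap2 at chr17:34340472-34353266 on the plus strand. Tapbp is at chr17:34052844-34066235, B2m at chr2:121973422-121978819 and Erap1 at chr13:74777320-74829983, all on the plus strand. Counts were over exons of these protein-coding genes, without regard to strand. Exons of other genes overlapped 18.5% of the exon bases of Tap2, 6.83% of those of Psmb8 and 3.87% of those of Tap1, and of the 50-base stretches of the transcripts 7.29% in H2-K1, 12.8% in H2-D1 and 15.7% in H2-T23 also occur in other coding genes, against 0% in B2m and Erap1. Reads without a unique alignment were set aside, 6.65% to 7.92% of all reads listed per library. Reads from such stretches may therefore be missing from the counts of the 3 heavy chains, whose levels are uncertain to that extent.

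Promoters are shown here for the 5 members whose windows hold an IRF element, H2-K1, H2-D1, H2-T23, B2m and Erap1, of which B2m was not called in the comparison of ages. They were chosen for those matches. Tap1 and Psmb8, which were also higher in old controls without being called, hold no match to either element and are not shown. RefSeq windows of 250 bases before to 50 bases after the start site (GRCm38.p6, a later assembly than mm9) were found for 9 of the 10 genes, all but Tap2, with 2 start sites for H2-K1. The stretches below run 5′ to 3′ on the strand of the gene, from 180 bases before the start site through the first 10 transcribed bases, and capitals mark matches on either strand to an IRF element, AANNGAAA, or an NF-kB element, GGGANNNNCC, the letters bound by interferon regulatory factors and by NF-kB. The Tapbp stretch is shown as the member whose level differed least between ages.
H2-K1, chr17:34000338-34000527, minus strand: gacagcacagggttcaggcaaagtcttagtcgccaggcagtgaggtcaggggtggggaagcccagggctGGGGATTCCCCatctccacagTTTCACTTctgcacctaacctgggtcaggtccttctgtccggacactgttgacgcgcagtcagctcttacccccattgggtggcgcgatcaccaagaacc
H2-D1, chr17:35262914-35263103, plus strand: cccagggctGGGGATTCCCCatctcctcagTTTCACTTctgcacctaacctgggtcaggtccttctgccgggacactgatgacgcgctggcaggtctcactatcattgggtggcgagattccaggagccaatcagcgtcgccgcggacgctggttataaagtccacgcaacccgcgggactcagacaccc
H2-T23, chr17:36032692-36032881, minus strand: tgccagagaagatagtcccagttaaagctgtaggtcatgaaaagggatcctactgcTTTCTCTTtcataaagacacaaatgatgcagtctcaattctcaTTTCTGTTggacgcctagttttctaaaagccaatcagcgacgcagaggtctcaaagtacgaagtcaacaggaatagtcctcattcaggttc
B2m, chr2:122147507-122147696, plus strand: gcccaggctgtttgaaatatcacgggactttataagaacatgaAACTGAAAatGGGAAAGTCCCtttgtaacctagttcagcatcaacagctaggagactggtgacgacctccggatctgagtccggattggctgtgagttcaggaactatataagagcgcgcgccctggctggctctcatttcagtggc
Erap1, chr13:74639673-74639862, plus strand: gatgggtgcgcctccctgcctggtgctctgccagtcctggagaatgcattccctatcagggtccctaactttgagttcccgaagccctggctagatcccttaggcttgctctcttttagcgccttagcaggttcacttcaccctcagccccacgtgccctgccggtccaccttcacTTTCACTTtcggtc
Tapbp, chr17:33919298-33919487, plus strand: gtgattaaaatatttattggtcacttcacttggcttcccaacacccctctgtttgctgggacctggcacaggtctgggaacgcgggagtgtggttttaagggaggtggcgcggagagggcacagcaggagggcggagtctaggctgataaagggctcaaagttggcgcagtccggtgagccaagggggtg

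H2-K1, H2-D1 and B2m held both elements within a few bases of each other. In H2-K1 the NF-kB matches began at -111 and -110 bases from the start site and the IRF match at -90. In B2m the order was the other way round, with the IRF match at -137 and the NF-kB matches at -127 and -126 bases. The IRF element was found in 5 of 9 members, against 23.9% of all 32851 promoter windows, and the NF-kB element in 3 of 9, against 20.7%. The H2-K1 and H2-D1 stretches are nearly the same sequence around these matches, so these 2 members are not independent. H2-T23 held 2 IRF matches, and that of Erap1 lay across the start site. Of 3 further elements, TTCNNNGAA was found in Psmb8 alone (8.30% of all windows), TGACG in 5 members (20.8%) and CCAAT in 7 (37.4%). The windows of Tap1 and Psmb9, which face away from each other, share 275 bases and are not independent. These motifs were chosen with the sequences in view, a match is not a measured site, and binding was not measured.

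**Figure D1:**
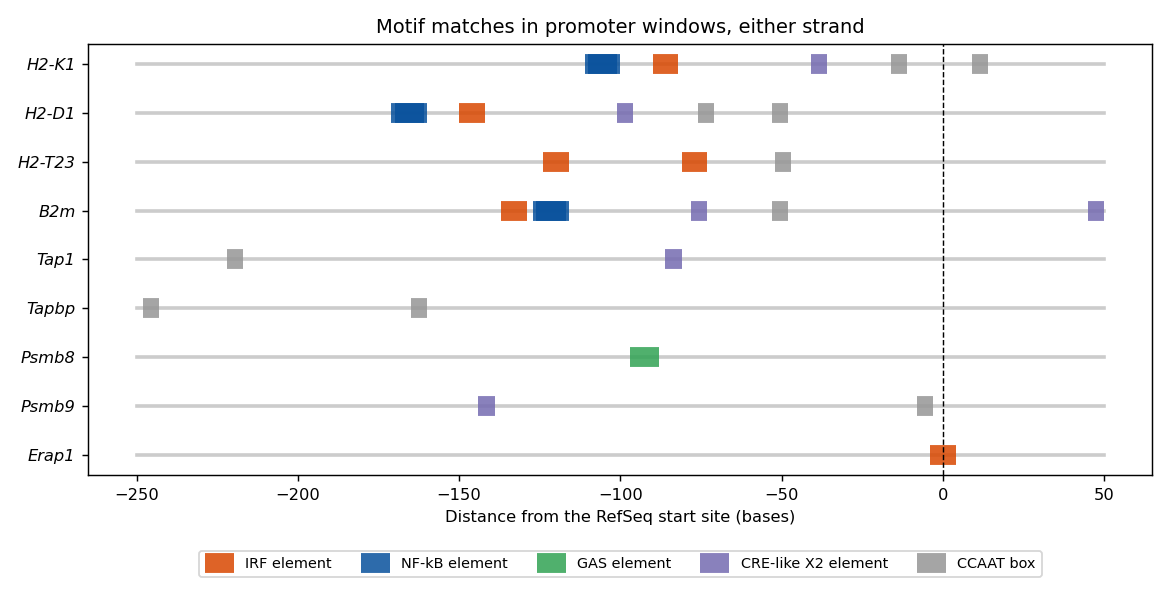
Positions of the 5 motifs, on either strand, in the promoter windows of 9 genes, in bases from the RefSeq start site (dashed line), 1 row per gene (for H2-K1, the farther upstream of its 2 start sites). IRF matches are seen in H2-K1, H2-D1, H2-T23, B2m and Erap1, and NF-kB matches beside them in H2-K1, H2-D1 and B2m.

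Psmb9, an immunoproteasome subunit, was listed at 0 in all 20 libraries. In the GENCODE annotation of mm9 it has 2 entries of the same name that share 3647 of 3648 exon bases of the first, and 200 of its bases overlap Tap1. The counting mode sets aside reads that fall on more than 1 gene. Which annotation the authors counted on was not stated, so no level or limit is given for Psmb9. All values below are for the other 9 genes.

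Levels between genes were compared per kilobase of exon. The lengths were those of all annotated exons of a gene joined, in GENCODE on mm9, from 860 bases for B2m to 5476 for Tap1. The annotation that the authors counted on was not stated, and which exons the retina uses was not measured. The order between genes is uncertain to that extent. In young controls B2m stood at 21.1 ± 3.83 CPM per kb (SD, n = 4) and Tapbp at 20.7 ± 1.43, a pair that did not differ beyond its spread. They were followed by H2-D1 at 14.6 ± 1.31, H2-K1 at 8.27 ± 0.725, Erap1 at 5.63 ± 0.553, Tap2 at 2.13 ± 0.190 and H2-T23 at 1.16 ± 0.191 CPM per kb. Psmb8 at 0.724 ± 0.212 and Tap1 at 0.486 ± 0.0722 CPM per kb were lowest. In old controls B2m stood alone at 32.3 ± 3.96 CPM per kb, Tapbp at 22.1 ± 0.854 and H2-D1 at 22.02 ± 1.97 did not differ beyond their spread, and H2-K1 at 18.6 ± 2.64 came within the spread of H2-D1. Erap1, Tap2, H2-T23, Psmb8 and Tap1 kept that order at 8.39, 3.84, 2.15, 1.39 and 0.737 CPM per kb. The standard proteasome subunit Psmb5, which Psmb8 replaces, stood at 37.9 ± 4.62 CPM per kb in young and 37.8 ± 2.37 in old controls.

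**Figure D2:**
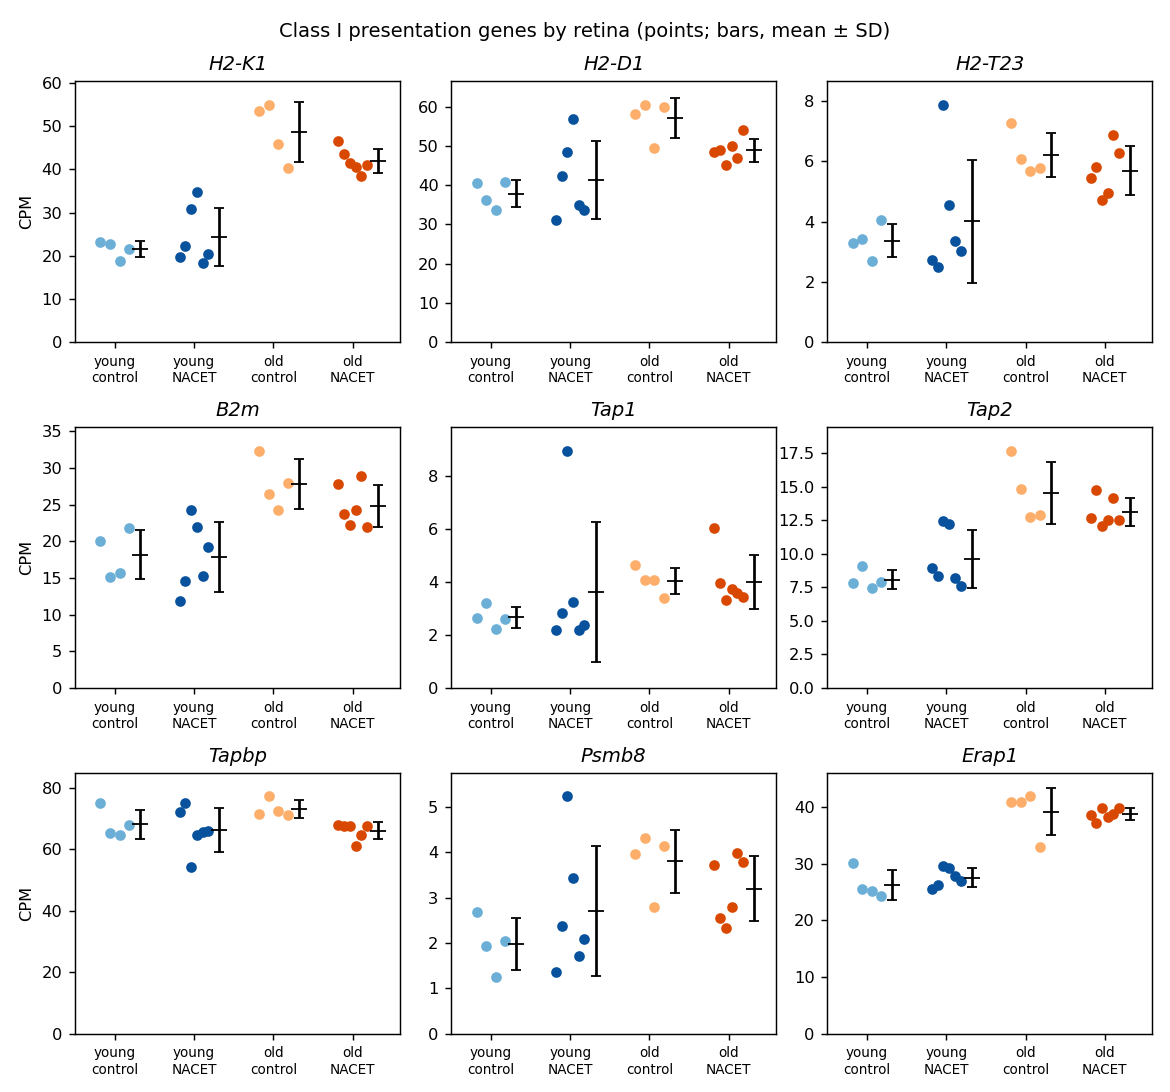
CPM of the 9 measured genes in each retina (points) by group, with the mean ± SD of each group (bars; n = 4, 6, 4 and 6 mice), each panel with its own axis from 0. All genes but Tapbp are higher in every old control than in every young control, and young NACET replicate 3 stands high for Tap1 (8.94 CPM), H2-T23 and Psmb8.

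The first comparison asked how the pathway differed between old and young retinas without treatment. Both classical heavy chains, Qa-1, the Tap2 subunit of the transporter and the trimming enzyme were higher in old controls. H2-K1 differed most, by 2.18-fold, and the others by 1.44- to 1.78-fold. B2m, Psmb8 and Tap1 were 1.48-, 1.88- and 1.46-fold higher without passing the test, and tapasin was at 1.04-fold. In all, 5 of the 9 tested genes were called higher and none lower at an adjusted p under 0.05 by edgeR, where 1.09% of 16484 genes were called higher and 1.42% in either direction. In 8 of 9, every old control lay above every young control, a pattern shown by 9.45% of all genes. In bulk tissue, fewer cells of a type and less RNA per cell cannot be told apart. All old controls were of 1 age and all young controls of another, so age and anything else that differed between these mice cannot be told apart.

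The H2-K1 heavy chain measured 23.1, 22.7, 18.9 and 21.6 CPM in young controls and 53.5, 55.0, 45.8 and 40.2 CPM in old controls. The groups were far apart, and the lowest old retina, replicate 4, was the one with Xist. The log2 change was 1.12 ± 0.10 (SE; edgeR adjusted p = 0.000312). The H2-D1 heavy chain measured 40.4, 36.3, 33.7 and 40.8 CPM in young and 58.0, 60.5, 49.5 and 60.0 CPM in old controls. Here too the groups did not overlap, with old control replicate 3 the lowest of the old. The log2 change was 0.55 ± 0.09 (edgeR adjusted p = 0.00975). H2-T23 counts were lower, 62 to 87 in young and 104 to 189 in old controls, which gave 3.30, 3.42, 2.70 and 4.05 CPM against 7.29, 6.08, 5.69 and 5.77 CPM. No old retina came near the highest young one, and the log2 change was 0.83 ± 0.14 (edgeR adjusted p = 0.0121).

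B2m, the light chain that all 3 heavy chains need, measured 20.0, 15.2, 15.6 and 21.9 CPM in young and 32.4, 26.5, 24.3 and 28.0 CPM in old controls. The groups were separate, although young replicate 4 came close to old replicate 3. The log2 change of 0.56 ± 0.13 stayed short of the threshold (edgeR adjusted p = 0.0541).

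Tap2 measured 7.83, 9.10, 7.45 and 7.86 CPM in young and 17.7, 14.8, 12.7 and 12.9 CPM in old controls. Old replicates 1 and 2 were highest, as for H2-K1, and the log2 change was 0.80 ± 0.11 (edgeR adjusted p = 0.00370). Its partner Tap1 measured 2.63, 3.18, 2.22 and 2.60 CPM against 4.62, 4.05, 4.05 and 3.41 CPM. The groups did not overlap by a small margin, and the log2 change of 0.55 ± 0.15 was not called (edgeR adjusted p = 0.0937). Tapbp measured 74.9, 65.1, 64.7 and 67.8 CPM in young and 71.4, 77.1, 72.5 and 71.0 CPM in old controls, which overlapped (log2 change 0.05 ± 0.07, edgeR adjusted p = 0.760).

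Psmb8 had the fewest reads, 29 to 52 counts in young and 51 to 134 in old controls. Its levels were 2.68, 1.93, 1.26 and 2.05 CPM against 3.97, 4.31, 2.79 and 4.15 CPM. The highest young and the lowest old retina lay side by side, and the log2 change of 0.91 ± 0.22 was not called (edgeR adjusted p = 0.0722). Erap1 measured 30.1, 25.6, 25.1 and 24.4 CPM in young and 41.0, 40.9, 41.9 and 33.0 CPM in old controls. The old retina at 33.0 CPM was again replicate 4, still above all young ones, and the log2 change was 0.53 ± 0.10 (edgeR adjusted p = 0.0235).

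Without old control replicate 4 the same 5 genes were called, where 129 of all 16582 genes were. Erap1 lost its call without young control replicate 2, 3 or 4 or old control replicate 2 or 3, with adjusted p from 0.0648 to 0.0918. B2m was called without young control replicate 1 (edgeR adjusted p = 0.0321) or 4 (0.0368), and Psmb8 without young control replicate 1 (0.0246). Both were also called by DESeq2, at an adjusted p of 0.00138 and 0.00786, where 4.33% of all genes were called. H2-K1 was called in all 17 alternative fits of this comparison, H2-D1 and Tap2 in 16, H2-T23 in 15, Erap1 in 11, B2m in 7, Psmb8 in 2, and Tap1 and Tapbp in 0. With sex by Xist as a covariate the same 5 genes were called as without it, where 152 of all 16484 genes were. Among the 5 libraries without Xist, 2 young and 3 old, H2-K1 alone was called, with a log2 change of 1.11, where 0.418% of all genes were called higher. The changes of H2-D1, H2-T23, Tap2 and Erap1 were 0.49, 0.85, 0.77 and 0.51 there, close to those in all 8 libraries, with adjusted p from 0.0847 to 0.192.

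**Figure D3:**
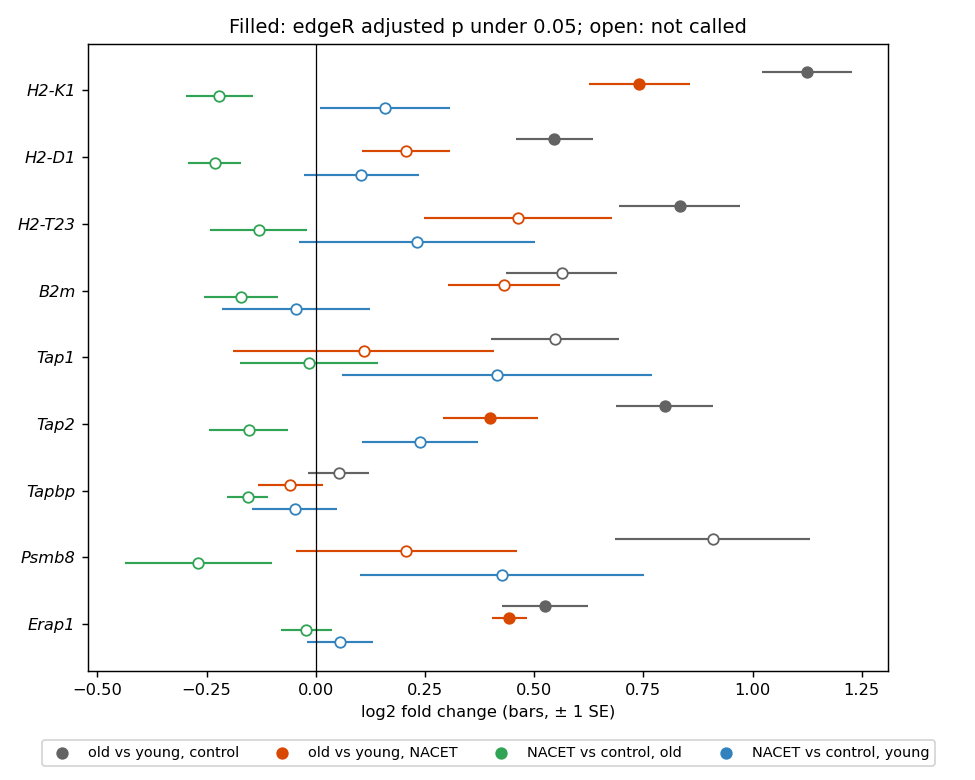
Log2 fold changes (x axis, ± 1 SE) of the 9 genes in 4 comparisons, filled where the edgeR adjusted p was under 0.05. Filled points are seen for old against young alone, at 0.53 to 1.12 for 5 genes in controls and at 0.40 to 0.74 for 3 genes under NACET, and all 9 NACET changes in old mice lie left of 0.

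The balance within the pathway was described next, from ratios of counts within a retina. H2-K1 counts were 0.529 to 0.626 of H2-D1 counts in young controls and 0.671 to 0.925 in old controls. The ratio was 0.524 to 0.639 in young NACET and 0.761 to 0.961 in old NACET retinas, so that no old retina fell within the range of the young. Old control replicate 4, with Xist, had the lowest ratio of the old retinas. B2m counts were 0.305 ± 0.038 of the sum of H2-K1 and H2-D1 in young (SD, n = 4) and 0.263 ± 0.027 in old controls, ranges that overlapped. Psmb8 counts were 5.61 ± 1.19% of those of Psmb5, the subunit it replaces, in young and 10.9 ± 1.68% in old controls. Tapbp counts were 3.17 ± 0.234 times those of H2-K1 in young and 1.52 ± 0.192 times in old controls.

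**Figure D4:**
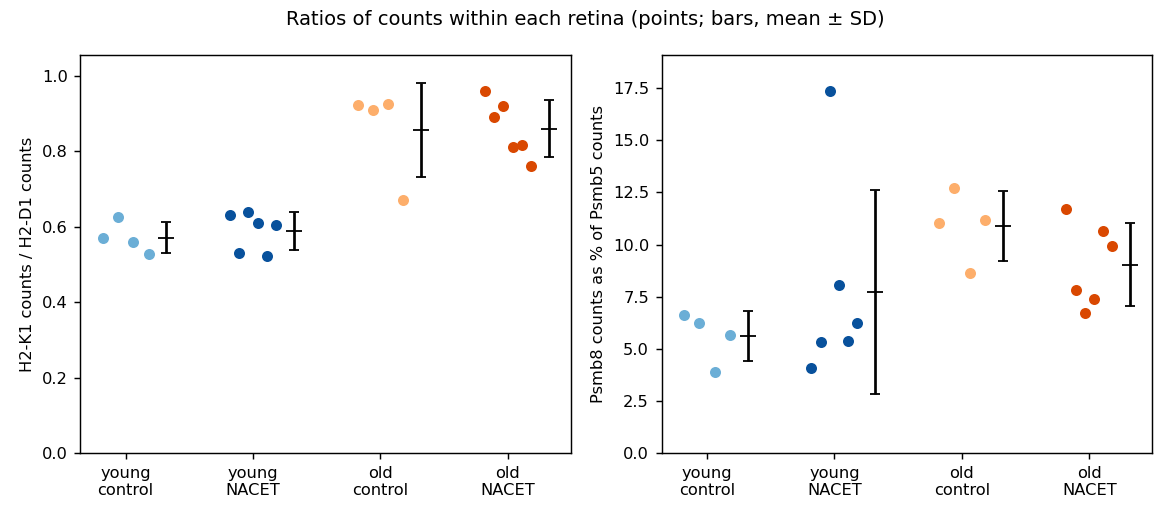
H2-K1 counts over H2-D1 counts (left) and Psmb8 counts as a percentage of Psmb5 counts (right) in each retina (points) by group, with mean ± SD (bars; n = 4, 6, 4 and 6 mice). On the left all old retinas (0.671 to 0.961) lie above all young ones (0.524 to 0.639), and on the right young NACET replicate 3 stands at 17.4%.

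Across the 20 retinas the 8 genes other than Tapbp rose and fell together. The Pearson r of log2 CPM ran from 0.46 to 0.93 over their 28 pairs, with a median of 0.77, and was highest for H2-K1 with Tap2. The 8 pairs with Tapbp had r from -0.50 to 0.03. These values rest on libraries that also differ in age and are a description. The 8 genes most like the members, by r to their mean standardized level over 20 libraries, were H2-Gs10 (r = 0.91), which is listed among class I genes by its name, Hspa2 (0.91), a chaperone of the heat shock family, Alox8 (0.91), a lipoxygenase, Prok1 (0.90), a secreted peptide, Gadd45b (0.90), a stress-response gene, 4932442L08Rik (0.89), Skap2 (0.89), an adaptor of immune cells, and Ifi27l1 (0.89). H2-Gs10 measured 4.08 CPM in young and 10.8 CPM in old controls, and Hspa2 8.14 and 16.3 CPM.

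The rest of the class I pathway was less uniform. A further 12 entries listed as class I heavy chains had enough counts, among them H2-K2, annotated as a pseudogene in GENCODE. Of these, 10 were higher in old controls (median log2 change 0.28, against -0.01 for all genes), 5 had an unadjusted p under 0.05 (16.3% of all genes did), and edgeR called 0 and DESeq2 1. Mr1, which presents vitamin metabolites, was at 0.67 ± 0.15 (edgeR adjusted p = 0.0550), H2-Q2 at 1.17 ± 0.44, H2-Q7 at 0.79 ± 0.38, H2-Q6 at 0.66 ± 0.29, H2-M3 at 0.38 ± 0.25, H2-T24 at 0.26 ± 0.13, H2-T22 at 0.21 ± 0.11, H2-K2 at 0.15 ± 0.09 and H2-M5 at -0.48 ± 0.20. The 13 other loading and proteasome activator genes had a median of -0.03, with 5 higher and 8 lower, 2 at an unadjusted p under 0.05, and 0 called by edgeR and 1 by DESeq2. Among them Psmb10, the remaining immunoproteasome subunit, was at -0.07 ± 0.14, and the proteasome activators Psme1 and Psme2 at 0.15 ± 0.09 and -0.02 ± 0.11. The 3 standard subunits Psmb5, Psmb6 and Psmb7 were at -0.05 ± 0.10, -0.05 ± 0.10 and -0.14 ± 0.10, with 0 called by edgeR or DESeq2 and 0 at an unadjusted p under 0.05.

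The regulators of the pathway were also measured. Of 26 genes of class I regulation and interferon signalling, 17 were higher and 9 lower in old controls, with a median log2 change of 0.04, and edgeR called 0, DESeq2 3, with 5 at an unadjusted p under 0.05. Nlrc5, the class I transactivator, had 12 to 38 counts in the control libraries and a log2 change of 0.57 ± 0.32. Irf1, an interferon-induced activator of class I genes, was at 0.27 ± 0.16.

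Most interferon-induced genes outside antigen presentation, and most microglia genes, were higher in old controls, and a part of each list was called. All 26 tested of 30 interferon-induced genes were higher in old controls, at a median log2 change of 0.58. Of them edgeR called 4, where 1.09% of all genes were called higher. DESeq2 called 8 (4.33% of all genes), and 20 had an unadjusted p under 0.05 by edgeR (16.3%). The 4 called by edgeR were the RNA sensor Ddx58 (0.76), the antiviral genes Rsad2 (1.08) and Oasl2 (0.52), and the GTPase Gbp6 (0.68). The 30 genes summed to 116 to 138 CPM in young and 168 to 212 CPM in old controls. Of 17 microglia genes 16 were higher in old controls and edgeR called 2, among them the lysosomal protease Ctss (0.77). DESeq2 called 3 of the 17, and 11 had an unadjusted p under 0.05 by edgeR. The 17 genes summed to 59.9 to 80.8 CPM in young and 94.9 to 110 CPM in old controls. In contrast, 15 genes of T and NK cells, the cells that read class I, summed to 1.05 to 2.31 CPM over all 20 libraries with no gene above 30 counts. Among them Cd3d and Cd3e had a single count in 1 library each, whereas Cd8a and Lck had counts in all 20 libraries, up to 16 and 30, and Cd4 and Cd247 in 19, up to 18 and 10. The 5 B cell genes summed to 0.805 CPM or less. Lyz2, a myeloid lysozyme, was the 1 called gene of 10 of monocytes and macrophages (log2 change 2.56 ± 0.55, edgeR adjusted p = 0.0461). Of the 4 of them tested, 3 were higher and 1 lower. The list summed to 10.4 to 13.3 CPM in young controls, and to 24.4, 38.8, 14.1 and 13.5 CPM in old controls 1 to 4. Old control replicate 2, the highest, also had the highest sums of blood genes and of cornea and conjunctiva genes among old controls. The part of microglia, of macrophages and of interferon in the class I levels was not tested.

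**Figure D5:**
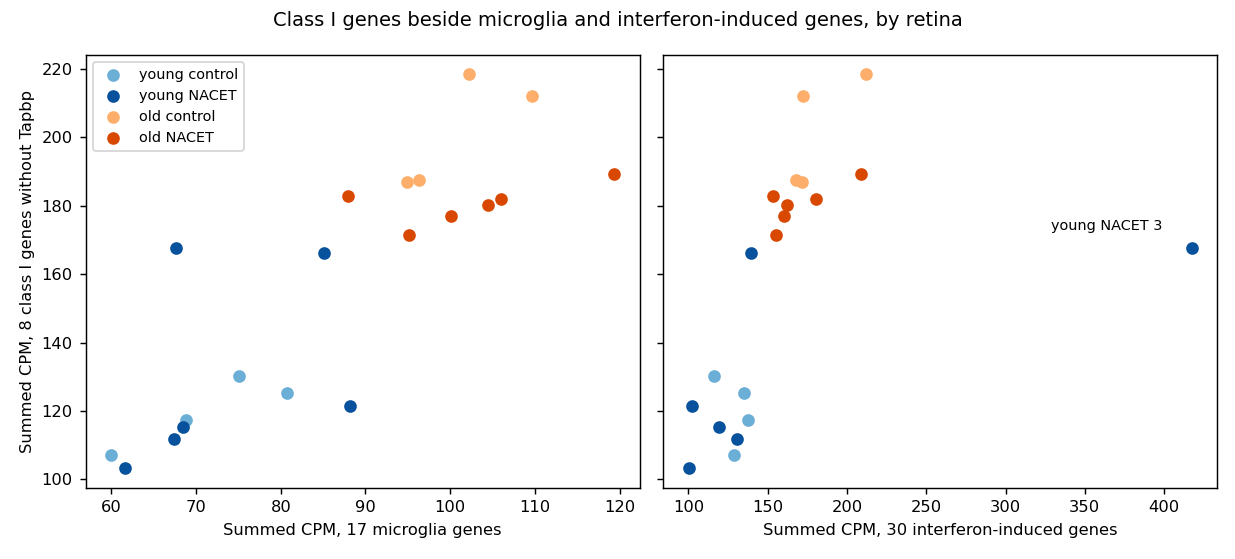
Summed CPM of the 8 class I genes other than Tapbp (y axis) against the summed CPM of 17 microglia genes (left) and 30 interferon-induced genes (right), 1 point per retina, coloured by group, with axes that do not start at 0. Old retinas lie above young ones, at 171 to 218 CPM against 103 to 168, and young NACET replicate 3 stands alone at 418 CPM of interferon-induced genes.

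The second comparison asked whether NACET changed the pathway in old mice. No member was called by edgeR, where 0.543% of 16562 genes were called in either direction. All 9 estimates were below 0, from -0.02 to -0.27 on the log2 scale with a median of -0.16, where 50.8% of all genes were above 0. Of them 3 had an unadjusted p under 0.05, as did 14.4% of all genes, and DESeq2 called 1. Markers of some other tissues were lower too: in treated old mice 10 of 10 pigment epithelium genes (median -0.97, 0 called), 5 of 5 blood genes (-2.53, 0 called) and 7 of 7 tested genes of cornea and conjunctiva (-3.57, 3 called). Lens genes went the other way, with 3 of 3 tested higher (median 7.48, 0 called), and were high in old NACET replicate 1. Connective tissue genes were mixed, with 2 higher and 3 lower (-0.02, 0 called). Pigment epithelium genes summed to 105 to 252 CPM in old controls and 37.8 to 129 CPM in old NACET retinas, and blood genes to 6.58 to 91.4 CPM and 5.15 to 7.41 CPM. Old control replicate 2 held the highest sum of blood genes and, at 595 CPM, that of cornea and conjunctiva. The other old controls were at 6.58 to 12.5 CPM for blood and 11.9 to 65.7 CPM for cornea and conjunctiva. Genes of cornea and conjunctiva summed to 1.54 to 17.7 CPM in old NACET retinas. The part of these tissues in the NACET values was not tested. H2-D1 measured 45.2, 48.7 and 53.9 CPM (lowest, median, highest of 6) in old NACET retinas, against 49.5 to 60.5 CPM in old controls. The groups overlapped, and the log2 change was -0.23 ± 0.06 (edgeR adjusted p = 0.0978). It was the gene that DESeq2 called (adjusted p = 0.0302, where 2.11% of all genes were called), and it was called by edgeR without old control replicate 3, its lowest control (-0.29, edgeR adjusted p = 0.0369, where 0.658% were called).

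H2-K1 measured 38.4, 41.3 and 46.6 CPM in old NACET, against 40.2 to 55.0 CPM in old controls. Control replicates 3 and 4 lay within the treated range and replicates 1 and 2 above it (log2 change -0.22 ± 0.08, edgeR adjusted p = 0.195). Tapbp was the 1 member without overlap, at 61.1, 67.4 and 67.9 CPM against 71.0 to 77.1 CPM (-0.16 ± 0.05, edgeR adjusted p = 0.147), and 1.81% of all genes had every treated retina below every control. B2m was at -0.17 ± 0.08, Tap2 at -0.15 ± 0.09, H2-T23 at -0.13 ± 0.11 and Psmb8 at -0.27 ± 0.17, all with overlapping groups. Erap1 at -0.02 ± 0.06 and Tap1 at -0.02 ± 0.16 showed the smallest changes.

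Old controls were all 668 days old, and 4 of the 6 treated mice were younger. Within the 668-day mice, 2 treated against 4 controls, H2-D1 was at -0.24, H2-K1 at -0.12, Tapbp at -0.12 and Tap1 at 0.30, with adjusted p of 0.546 or more for all 9 genes. Among treated mice, those of 574 and 581 days differed from those of 668 days by -0.16 ± 0.06 in H2-K1 and by -0.50 ± 0.17 in Tap1, and 0 members were called by edgeR, as were 0% of all 16659 genes, with 2 members at an unadjusted p under 0.05 (8.26% of all genes) and 0 called by DESeq2 (0.162%). This comparison and the former share the old controls or the treated mice, so their values are not independent. Of the 13 other loading and proteasome activator genes, edgeR called 1 in treated old mice of all ages, where 0.543% of all genes were called. This was Calr (calreticulin, a chaperone of the loading complex), which was higher (log2 change 0.37 ± 0.07, edgeR adjusted p = 0.0384). It measured 327 to 391 CPM, against 257 to 298 CPM in old controls. Within the 668-day mice 0 of 16839 genes were called, so Calr was not called there.

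In young mice, NACET gave 0 called members by edgeR or DESeq2, with 0 at an unadjusted p under 0.05 (4.36% of all genes), and 0% of 16588 genes were called by either tool. The median log2 change was 0.16, with 7 estimates above 0 and 2 below. By their titles 4 of the 6 treated mice were 129 days old, and all controls were 119 days old. The median was -0.13 with the batch tag as a covariate and -0.068 with the age in the title. Of the treated mice only replicate 5 shares the batch tag of the controls, and only replicates 5 and 6 share their age in the title. The NACET estimates of those fits rest on these treated retinas alone, both labelled female. The direction of the median thus depends on which treated retinas are set against the controls. Without young NACET replicate 3 the median was 0.046. The treated group was spread more widely than the controls. H2-K1 measured 18.3, 21.4 and 34.7 CPM (lowest, median, highest) in young NACET, against 18.9 to 23.1 CPM in young controls. The highest values were 34.7 CPM in replicate 4 and 30.9 CPM in replicate 3, and the other 4 lay between 18.3 and 22.4 CPM. H2-D1 had the same 2 retinas on top, at 56.8 and 48.3 CPM. Genes of cornea and conjunctiva summed to 548 CPM in replicate 4 and 260 CPM in replicate 3, against 7.33 to 19.6 CPM in young controls. They also summed to 280 CPM in replicate 5, which had the lowest H2-K1 of the group, 18.3 CPM. The part of these tissues in the young values was not tested. Tap1 measured 8.94 CPM in replicate 3 and 2.16 to 3.25 CPM in the other 5, and Psmb8 5.24 CPM against 1.36 to 3.45 CPM. In replicate 3 the 30 interferon-induced genes summed to 418 CPM, against 100 to 139 CPM in the other 5, while its microglia genes summed to 67.7 CPM, within the range of young controls. Without replicate 3 the log2 change of Tap1 went from 0.42 to -0.06 and that of H2-T23 from 0.23 to -0.06.

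Old and young treated mice were then compared, in mice that none of the control comparison included. Of the members 3 were called higher by edgeR and none lower, where 2.24% of 16276 genes were called higher and 4.88% in either direction. H2-K1 was 1.67-fold higher, at 38.4 to 46.6 CPM in old against 18.3 to 34.7 CPM in young retinas (log2 change 0.74 ± 0.12, edgeR adjusted p = 0.00109). Erap1 measured 37.2, 38.7 and 39.9 CPM (lowest, median, highest) in old and 25.5, 27.4 and 29.7 CPM in young NACET retinas, a difference of 0.44 ± 0.04 with the smallest SE of the 9 genes. Tap2 measured 12.1, 12.6 and 14.7 CPM against 7.59, 8.63 and 12.4 CPM, which overlapped (0.40 ± 0.11, edgeR adjusted p = 0.0427). H2-K1 and Erap1 did not overlap between the ages, a pattern of old above young shown by 3.29% of all genes. B2m was at 0.43 ± 0.13 (edgeR adjusted p = 0.0625), H2-T23 at 0.46 ± 0.22, H2-D1 at 0.21 ± 0.10, Psmb8 at 0.21 ± 0.25, Tap1 at 0.11 ± 0.30 and Tapbp at -0.06 ± 0.07. Without young NACET replicate 3, the retina high in interferon-induced genes, 6 members were called higher, where 2.73% of all genes were: H2-K1, H2-T23, B2m, Tap1, Tap2 and Erap1. Leaving out 1 library at a time, Tap2 lost its call in 10 of 12 fits, all but those without young NACET replicate 3 or 4, with adjusted p from 0.0517 to 0.103, whereas H2-K1 and Erap1 were called in all 21 alternative fits.

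Beside these genes, 9 of 16 microglia genes were called higher in old treated mice, among them Cx3cr1 (0.85), C1qc (0.76) and Ctss (0.67), with sums of 61.6 to 88.1 CPM in young and 87.9 to 119 CPM in old NACET retinas. Of 24 tested interferon-induced genes 12 were higher, and their median was 0.01 on the log2 scale, with 0 called by edgeR or DESeq2 (7.72% of all genes by DESeq2) and 1 at an unadjusted p under 0.05 (21.1%). These values include young NACET replicate 3, where the list summed to 418 CPM. It summed to 100 to 139 CPM in the other young NACET retinas and to 153 to 209 CPM in old NACET retinas. Changes of this list without replicate 3 are not given here. The heavy chain Hfe, a regulator of iron uptake, was called (0.43 ± 0.08, edgeR adjusted p = 0.00417), as were the peptidase Npepps (0.23 ± 0.05) and Stat3 (0.28 ± 0.06). The part of microglia in the class I levels was not tested here either.

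The difference between the ages was finally compared between treated and untreated mice by an interaction term over all 20 libraries, which also tests whether NACET acted differently at the 2 ages. All 9 estimates were negative, from -0.08 for Erap1 to -0.70 for Psmb8, with a median of -0.37. Without young NACET replicate 3, the retina high in interferon-induced genes, the median was -0.17. Over all fits that left out 1 library, Psmb8 ran from -0.89 to -0.41, H2-T23 from -0.46 to -0.077 and Tap1 from -0.59 to 0.046, and the last value of each was the fit without that retina. No member was called by edgeR or DESeq2, and of 16993 genes 0% were by edgeR and 0.483% by DESeq2. An unadjusted p under 0.05 was found for 3 members, and for 6.19% of all genes. These were Tap2 (-0.40 ± 0.16, edgeR adjusted p = 0.705), H2-D1 (-0.34 ± 0.15, edgeR adjusted p = 0.774) and H2-K1 (-0.38 ± 0.18, edgeR adjusted p = 0.784). The counts of 5 called members in controls and 3 under NACET are no test of that difference, which passed the threshold for no member. The term contains the NACET difference of the young mice, whose median went from 0.16 to -0.13 with the batch tag as a covariate. With the age in the title it went to -0.068. Among treated young mice, the first of those values rests on replicate 5 alone and the second on replicates 5 and 6. The interaction was not fitted with these covariates. In both age groups a part of the treated mice differed in days of age from their controls, which this term cannot tell apart from NACET.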

How the data were processed

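Retinal polyA RNA of 20 mice, 1 library each, was analysed from the raw counts per gene that the authors deposited. Per the labels and the study's methods, the authors made TruSeq libraries, sequenced single ends, aligned them to mm9 with TopHat2 2.1.0 and counted reads over exons with HTSeq 0.11.2, without strand and in a mode that sets aside reads on more than 1 gene. The annotation and read length were not given in the sources used here. Reads set aside as ambiguous were 1.09% to 1.20% of all reads listed, and an unnamed row held at most 0.00218% and was left out.

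CPM is a count per 1e+06 gene counts of a library. Groups came from the labels. The test was that of edgeR 4.0.16, run in R 4.3.3 (TMM, default expression filter, quasi-likelihood test, Benjamini-Hochberg over all genes tested, call at an adjusted p under 0.05), with each comparison fitted on its own groups and the interaction on all 20 libraries. SE is the log2 change over the square root of F. DESeq2 1.42.0, RLE factors, other filters, a robust fit, a replicate block, sex and age terms and leaving out each library were alternatives. The fits were tested on simulated counts. Gene positions came from GENCODE on mm9, and promoters from RefSeq on GRCm38.p6. All members were named in every comparison, as were fixed genes of the pathway lists, the called genes of other lists with the smallest p and the 8 genes most like the members. Single genes of these lists that the rule would name are not reported here. The members and lists were chosen with earlier results of these data known. Precision is limited by 4 to 6 mice per group and, for Psmb8, Tap1, H2-T23 and Nlrc5, by low counts.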

Additional observations from a re-analysis of the deposited data

Results flagged for a closer look

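Of 44 sets of values, a measure in 1 group each, 5 had a retina far from the others by Dixon's criterion, which chance alone meets in about 1 of 20 sets. Tap1 measured 8.94 CPM in young NACET replicate 3, against 2.16 to 3.25 CPM in the other 5 retinas of its group. The same retina stood apart in the summed interferon-induced genes, at 418 CPM against 100 to 139 CPM. Tap1 also measured 6.01 CPM in old NACET replicate 1, against 3.32 to 3.95 CPM in the others. That retina carried the lens genes. Erap1 measured 33.0 CPM in old control replicate 4, the Xist-positive retina labelled male, against 40.9 to 41.9 CPM. The interferon-induced genes summed to 212 CPM in old control replicate 1, against 168 to 172 CPM in the other old controls.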

How the results depend on the processing

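Members called for age in controls were 4 to 7 of 9 when single libraries were left out, 7 with DESeq2, 6 with the replicate block and 1 among libraries without Xist, which are fewer. Over all genes these fits called 113 to 414 of at least 16544, 714 of 16484, 163 of 16484 and 72 of 16521. Under NACET, old against young gave 2 to 6 on leaving out single libraries and 2 with the replicate block. Over all genes the calls there were 478 to 922 of at least 16357 and 422 of 16276. NACET in old mice gave 1 with DESeq2 and 0 to 1 on leaving out single libraries. Over all genes the calls there were 349 of 16562 and 8 to 110 of at least 16482. Calls over all genes for age in controls were 234 by edgeR and 714 by DESeq2, for NACET in old mice 90 and 349, and for age under NACET 795 and 1256. The replicate numbers did not pair the mice: same-numbered libraries correlated in their deviations at -0.157 to 0.123, and libraries correlated best with their own number in 0 of 8, 0 of 8, 3 of 8 and 2 of 12 cases.

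Signs turned for the members named here, and the cause was not tested. In old mice NACET changed Tap1 by 0.050 with the replicate block, 0.30 in 668-day mice, 0.30 with the age cohort as a covariate and -0.17 to 0.032 on leaving out libraries, and Erap1 by -0.090 to 0.015. The 668-day fit and the fit with the age cohort rest on the same treated retinas, old NACET replicates 1 and 2. In replicate 1 Tap1 stood at 6.01 CPM, against 3.32 to 3.95 CPM in the others. These retinas are also the 668-day side of the comparison of cohorts within old NACET. In young mice, libraries without Xist gave 0.0091 for B2m and -0.033 for Erap1. The batch tag as a covariate gave -0.25 for H2-K1, -0.13 for H2-D1, -0.012 for H2-T23, -0.31 for Tap1 and -0.22 for Psmb8. The age in the title gave -0.15, -0.14, -0.068 and -0.23 for H2-K1, H2-D1, H2-T23 and Tap1, -0.024 for Tap2 and -0.053 for Psmb8. Leaving out libraries gave -0.056 to 0.33 for H2-T23, -0.14 to 0.053 for B2m, -0.062 to 0.53 for Tap1 and -0.088 to 0.019 for Tapbp. For age under NACET, Tap1 was at -0.13 with sex as a covariate, -0.13 without Xist-positive libraries and -0.040 to 0.59 on leaving out libraries. The interaction of Tap1 ran from -0.59 to 0.046 on leaving out libraries. Between the cohorts of old NACET mice the ranges were -0.040 to 0.039 for H2-D1, -0.071 to 0.094 for H2-T23, -0.18 to 0.029 for B2m, -0.21 to 0.031 for Tap2 and -0.19 to 0.33 for Psmb8.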

Other observations

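Class II genes, which present peptides to CD4 T cells, did not follow the class I genes in level. The 10 listed summed to 7.58 to 11.5 CPM in young controls, 5.94 to 10.3 in young NACET, 8.30 to 10.7 in old controls and 7.70 to 9.64 CPM in old NACET retinas. Of the 6 tested for age in controls, 2 were higher and 4 lower (median log2 change -0.10), with 0 called by edgeR or DESeq2 and 0 at an unadjusted p under 0.05. Genes of reactive gliosis, the response of Muller glia to damage, summed to 271 to 315 CPM in young and 323 to 329 CPM in old controls. The oncostatin M receptor gene Osmr was the 1 of 9 called there (log2 change 0.67 ± 0.11), and under NACET 4 were called, Serpina3n (1.04 ± 0.21), Gfap (0.84 ± 0.18), Edn2 (1.11 ± 0.26) and Stat3.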
